A study of Mus musculus with 28 samples.

Results

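The interferon response genes described here are 33 genes, listed by name and class, whose transcription rises when cells are exposed to interferons. They were chosen by name, and 32 of them could be matched by Ensembl identifier among the 22187 genes of the expression table; Gbp6 was not analysed here. The matched genes fall into 17 type I antiviral effectors, 3 transcription factors, 7 interferon-gamma GTPases, 3 genes of antigen processing and 2 chemokines. All 32 passed the filter on low values, which asked for 1 CPM (the read count scaled to the library total) in at least 3 of the fitted libraries.

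RNA was sequenced from liver tumors and the surrounding non-tumor liver of C57BL/6 mice with or without the interleukin-17 receptor gene Il17ra in hepatocytes. Controls carried the floxed receptor alone (IL17RA_floxflox, here FF), and knockouts carried it with Cre driven by the albumin promoter (AlbCre_IL17RA_floxflox, here dHEP), which acts in cells that express albumin, so other liver cells keep the gene. Every animal had received the hepatocarcinogen diethylnitrosamine (DEN, 25 mg/kg, into the peritoneum) at 2 weeks of age. Animals were then kept for 18 weeks on liquid ethanol feeding, which the labels call HFD_alcohol, or on chow. Each of the 4 alcohol groups (FF or dHEP, tumor or non-tumor) held 4 libraries and each of the 4 chow groups held 3, giving 28 libraries. The sex of the animals is not given in the sources used here. Libraries are named here by the genotype and animal number of their titles. Both tissues came from the same animal numbers for FF alcohol (F_F_503, F_F_523, F_F_581, F_F_595) as well as dHEP alcohol (dHEP_518, dHEP_520, dHEP_549, dHEP_550) and the dHEP chow animals (dHEP_155, dHEP_164, dHEP_165), whereas FF chow non-tumor (F_F_157, F_F_158, F_F_159) and FF chow tumor (F_F_167, F_F_168, F_F_169) carried different ones. The alcohol and chow animals come from separate number ranges, so diet and cohort cannot be told apart. HFD_alcohol was compared only with chow, so ethanol cannot be told apart from the rest of that diet. Alcohol below means this whole diet.

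Interferons are cytokines that warn cells of infection. Type I interferons bind the receptor made of Ifnar1 and Ifnar2 and act through a complex that includes Stat2 and Irf9 and binds the interferon-stimulated response element (ISRE) of antiviral genes. Interferon-gamma, made by T cells and natural killer cells, binds Ifngr1 and Ifngr2, acts through the gamma-activated site (GAS), raises Irf1 and through it the GTPases that attack intracellular microbes, the immunoproteasome and the chemokines Cxcl9 and Cxcl10. The classes overlap, since many of these genes answer to both kinds of interferon.

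In the 250 bases before the RefSeq transcription start (GRCm38.p6), the ISRE letters GAAANNGAAA, searched on both strands, occurred in 14 of the 26 members with a RefSeq window, against 3.46% of all 27025 gene symbols. They were found in 6 of 12 type I effectors, in 6 of 6 GTPases (Gbp2, Gbp3, Gbp7, Irgm1, Irgm2, Igtp), in Cxcl10 and Stat2, and in none of Tap1, Psmb8 and Psmb9. The GAS letters TTCNNNGAA, which read the same on both strands, occurred in 8 of 26 members, against 8.13% of symbols, and Oas1a, Bst2, Gbp7, Irgm2 and Igtp held both. A match is a description of these letters and not a proven site. The stretches below show the ISRE letters of Isg15, Oas1a, Rsad2 and Cxcl10, which rose in tumors in at least 1 comparison below. They also show Ifit1, Irgm2 and Igtp as examples of their classes, and the GAS letters of Irf1. Ifi44, Ifih1, Cxcl9, Tap1 and Psmb8 also rose in tumors and held no ISRE letters in the window. Gbp2, which rose and held them, is not shown. Capitals mark the ISRE letters, and in Irf1 the GAS letters.

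Isg15: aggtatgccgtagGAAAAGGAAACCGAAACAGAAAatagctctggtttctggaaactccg
Ifit1: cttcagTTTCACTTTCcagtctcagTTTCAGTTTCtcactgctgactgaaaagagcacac
Oas1a: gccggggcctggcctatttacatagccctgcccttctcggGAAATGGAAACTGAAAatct
Rsad2: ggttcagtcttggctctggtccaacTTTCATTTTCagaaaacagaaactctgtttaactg
Irgm2: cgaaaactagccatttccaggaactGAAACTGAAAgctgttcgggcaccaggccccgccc
Igtp: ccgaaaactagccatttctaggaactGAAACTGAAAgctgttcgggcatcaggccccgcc
Cxcl10: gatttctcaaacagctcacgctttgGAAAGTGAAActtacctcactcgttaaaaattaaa
Irf1: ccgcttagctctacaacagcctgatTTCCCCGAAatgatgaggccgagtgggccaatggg

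These run 5′ to 3′ on the strand of each gene. They lie at chr4:156200850-156200909 (minus strand) for Isg15, chr19:34640779-34640838 (plus) for Ifit1, chr5:120907526-120907585 (minus) for Oas1a and chr12:26456538-26456597 (minus) for Rsad2. Irgm2 and Igtp are neighbours on the plus strand of chromosome 11, at chr11:58214888-58214947 and chr11:58199496-58199555. The stretch of Cxcl10 is at chr5:92349068-92349127 (minus) and that of Irf1 at chr11:53769899-53769958 (plus). None of the 8 stretches overlaps an exon of the GENCODE vM21 annotation. The overlapping ISRE letters of Isg15 and Oas1a make a run of adjacent GAAA blocks, while Ifit1 holds a pair of separate matches.

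Depth was such that 1 CPM stood for an estimated 9.57 to 17.8 reads and the values below 3 CPM rest on few reads. Il17ra stood at 14.7 to 31.0 CPM in the 7 FF non-tumor libraries and at 8.34 to 13.0 CPM in the 7 dHEP non-tumor libraries, without overlap. In tumors the FF range was 20.8 to 33.9 CPM and the dHEP range 8.38 to 29.4 CPM. The tumor libraries labelled dHEP_520 and dHEP_155 held 28.2 and 29.4 CPM of Il17ra, within the FF range, and the member counts and medians that rest on them, and the counts of pathway genes, are also given without them. The FF alcohol non-tumor libraries F_F_523 and F_F_581 held 239 and 177 CPM of the tumor markers Afp and Gpc3 summed, against 12.6 and 2.56 CPM in the other two of that group, and tumor library dHEP_549 held 5.94 CPM. The hepatocyte markers Alb, Apoa1, Ttr, Hnf4a and Cps1 were abundant in every library. These are pieces of bulk tissue, in which fewer cells of a type and less RNA per cell cannot be told apart. Separate animals are not stated for every library beyond the numbers, so p-values measure the spread between these samples.

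Levels of the members spread widely over the 28 libraries. Isg15, a ubiquitin-like protein conjugated to other proteins during infection, spanned 2.00 to 20.03 CPM. Ifit1, which binds foreign RNA caps, spanned 5.14 to 37.5 CPM, and Rsad2 (viperin), an enzyme that makes a chain terminator of viral RNA synthesis, spanned 4.49 to 51.8 CPM. Bst2 (tetherin), which holds budding virus at the cell surface, was the steadiest of the class, at 78.8 to 153 CPM. Among the GTPases Iigp1, an immunity-related GTPase of infected vacuoles, spanned 123 to 842 CPM. The chemokines Cxcl9 and Cxcl10 spanned 7.60 to 251 CPM and 1.23 to 43.6 CPM. Several members (the Oas, Ifit, Gbp and immunity-related GTPase genes) have near-identical relatives between which estimated counts can be split, so their individual levels are uncertain.

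**Figure D1:**
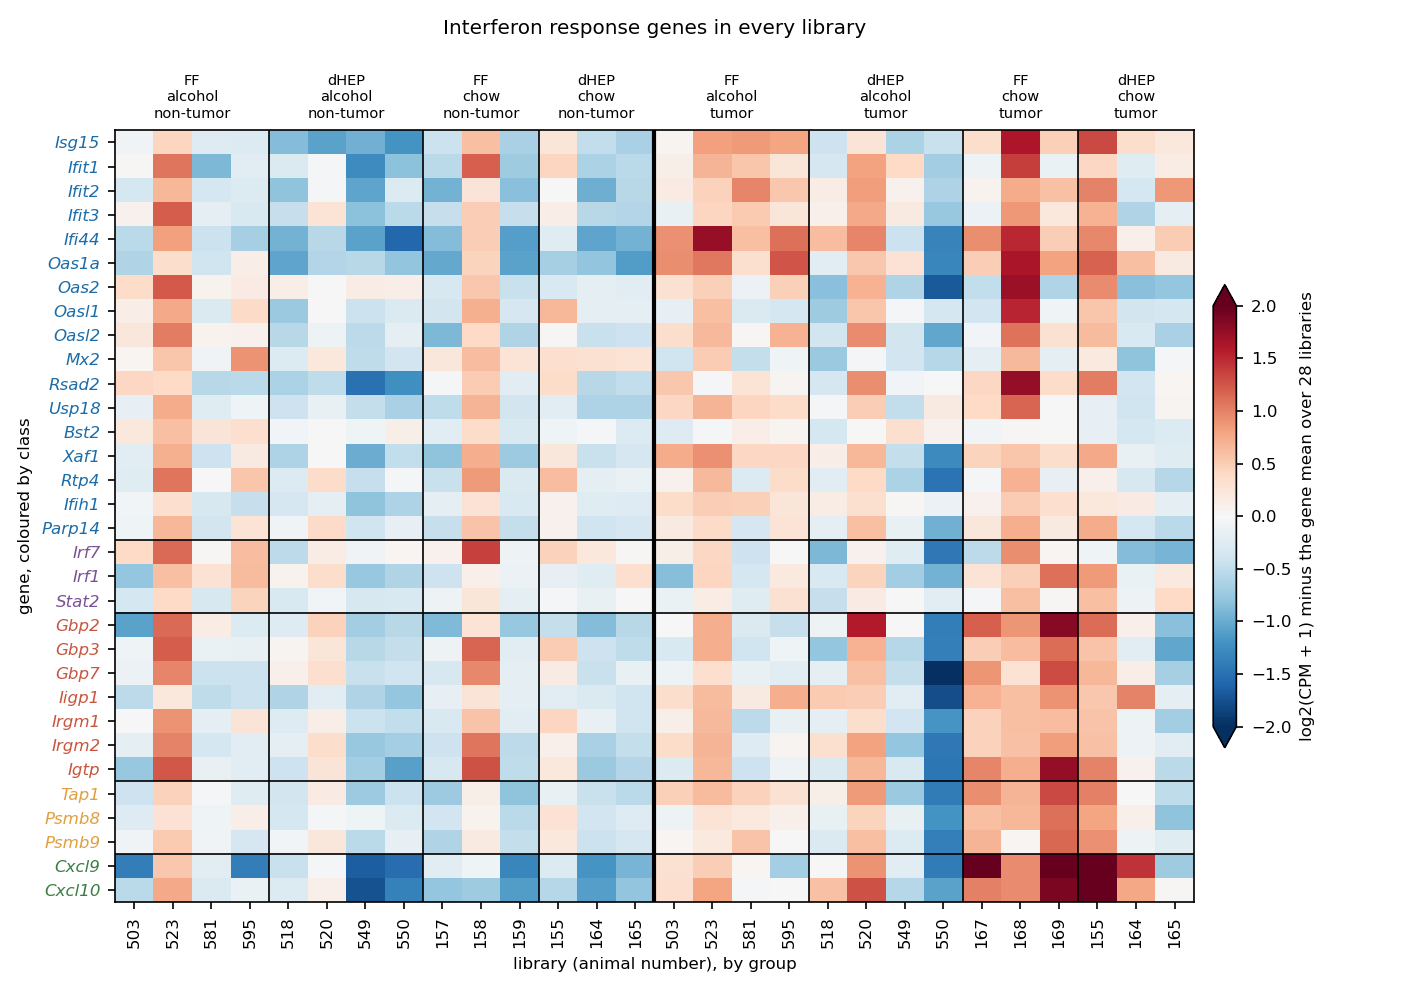
Levels of the 32 interferon response genes (rows, coloured by class) in the 28 libraries (columns, named by animal number and ordered by tissue, diet and genotype), as log2(CPM + 1) minus the mean of the gene over all libraries. Most columns are red or blue over many rows at once, as in FF chow non-tumor F_F_158 and dHEP alcohol tumor dHEP_550. Averaged over Cxcl9 and Cxcl10, chow tumors F_F_167, F_F_169 and dHEP_155 are highest, at 2.03, 2.55 and 2.66. Alcohol tumor dHEP_520 is also red for this pair (1.09), and chow tumor dHEP_165 averages below 0 (-0.35).

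In several groups 1 library was high for most members. In FF chow non-tumor liver, animal F_F_158 had the highest value of its group for 32 of 32 members, and also for 63.4% of all 13503 genes tested. In FF alcohol non-tumor liver animal F_F_523 was highest for 28 of 32, in dHEP alcohol non-tumor liver animal dHEP_520 for 28, and in dHEP chow non-tumor liver animal dHEP_155 for 28, against 43.7%, 25.4% and 43.4% of all genes. The Kupffer cell markers of F_F_158 summed to 361 CPM against 158.2 and 209 CPM in the rest of its group, and its monocyte and macrophage markers to 105 CPM against 49.6 and 61.4 CPM. Both sums were also the highest of their groups in non-tumor F_F_523 (467 and 161 CPM) and dHEP_155 (374 and 104 CPM), but not in dHEP_520 (308 and 89.7 CPM). In non-tumor F_F_523 the Kupffer cell sum rested on Clec4f (154 CPM) and Cd5l (247 CPM). The other Kupffer cell markers were not highest there, and Timd4 (8.41 CPM) and Marco (16.1 CPM) were the lowest of the group. The tumors of 3 of these animals were again the highest of their groups, for 21 members in FF alcohol tumor F_F_523, 30 in dHEP alcohol tumor dHEP_520 and 30 in dHEP chow tumor dHEP_155, against 39.4%, 49.4% and 59.2% of all genes. At the low end dHEP alcohol tumor dHEP_550 had the lowest value for 25 of 32 members, against 26.2% of all genes, among them all 12 GTPases, antigen processing genes and chemokines. That library also held the least Kupffer cell marker signal of all 28, at 26.3 CPM over 5 markers against 144 to 313 CPM in the other tumors of its group, and 1.33 CPM of T cell markers. Among the high tumors Kupffer cell sums went both ways. Tumor dHEP_520 had the highest of its group (313 CPM), but tumor dHEP_155 the lowest of its group, at 47.9 CPM against 103.2 and 60.7 CPM. Tumor F_F_523 held 175 CPM, below the 216 CPM of tumor F_F_595. The part of these cells in the high and low values was not tested.

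In the FF chow tumors different libraries led the type I and the interferon-gamma side. Tumor F_F_168 was the highest of 3 for 17 of 17 type I effectors, and for 44.2% of all genes, with a class level (the mean over genes of log2(CPM + 1) minus the gene's mean over 28 libraries) of 1.07, against 0.12 in tumor F_F_167 and 0.17 in tumor F_F_169. Tumor F_F_169 was the highest for all 12 genes of the interferon-gamma side, and for 27.5% of all genes, with a level of 1.42, against 0.95 in tumor F_F_167 and 0.63 in tumor F_F_168. Isg15 was 20.03 CPM in tumor F_F_168 against 7.72 and 8.58 CPM in tumors F_F_167 and F_F_169, and Oasl1, an inhibitor of Irf7 translation, 39.3 CPM against 9.82 and 12.4 CPM. Cxcl9 went the other way, with 50.9 CPM in tumor F_F_168 against 224 and 251 CPM. Of the transcription factors, Irf7, which drives type I interferon production, was highest in tumor F_F_168 (58.0 CPM, against 20.7 and 30.8), and Irf1, an effector of interferon-gamma, was highest in tumor F_F_169 (71.3 CPM, against 39.7 and 46.3).

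The 5 T cell markers (Cd3e, Cd3d, Cd3g, Cd4, Cd8a), all detected in each of these 3 tumors, summed to 5.16 CPM in tumor F_F_168, 20.7 CPM in tumor F_F_167 and 44.9 CPM in tumor F_F_169. Ifng itself was 0.06, 0.18 and 0.48 CPM in the same order. The order of the T cell sums among these 3 libraries was that of Cxcl9, and the sums of B cell and natural killer cell markers were also highest in tumor F_F_169 (26.3 and 12.8 CPM). Among the natural killer cell markers Ncr1 was instead highest in tumor F_F_168, at 0.62 CPM against 0.12 CPM in F_F_167 and 0.36 CPM in F_F_169. Sums of some other markers were highest in tumor F_F_168, which led the type I effectors. Monocyte and macrophage markers summed to 276 CPM there, against 107 CPM in tumor F_F_167, and their sum was also lower in tumor F_F_169. Most of the sum in tumor F_F_168 was Lyz2, at 240 CPM. Of the same markers Ly6c2 was instead highest in tumor F_F_169, at 7.19 CPM against 4.34 CPM in F_F_168. Cx3cr1 was lowest in tumor F_F_168, at 4.99 CPM against 5.79 CPM in F_F_167 and 5.26 CPM in F_F_169. Neutrophil markers summed to 25.2 CPM in tumor F_F_168 against 1.11 and 2.66 CPM. The tumor markers Afp and Gpc3 summed to 1930 CPM there against 759 and 204 CPM. Plasmacytoid dendritic cell markers summed to 59.6 CPM in tumor F_F_168, below 61.2 CPM in F_F_167 and 64.3 CPM in F_F_169. Kupffer cell, conventional dendritic cell and endothelial sums were highest in tumor F_F_169. The part of any of these in either pattern was not tested.

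**Figure D2:**
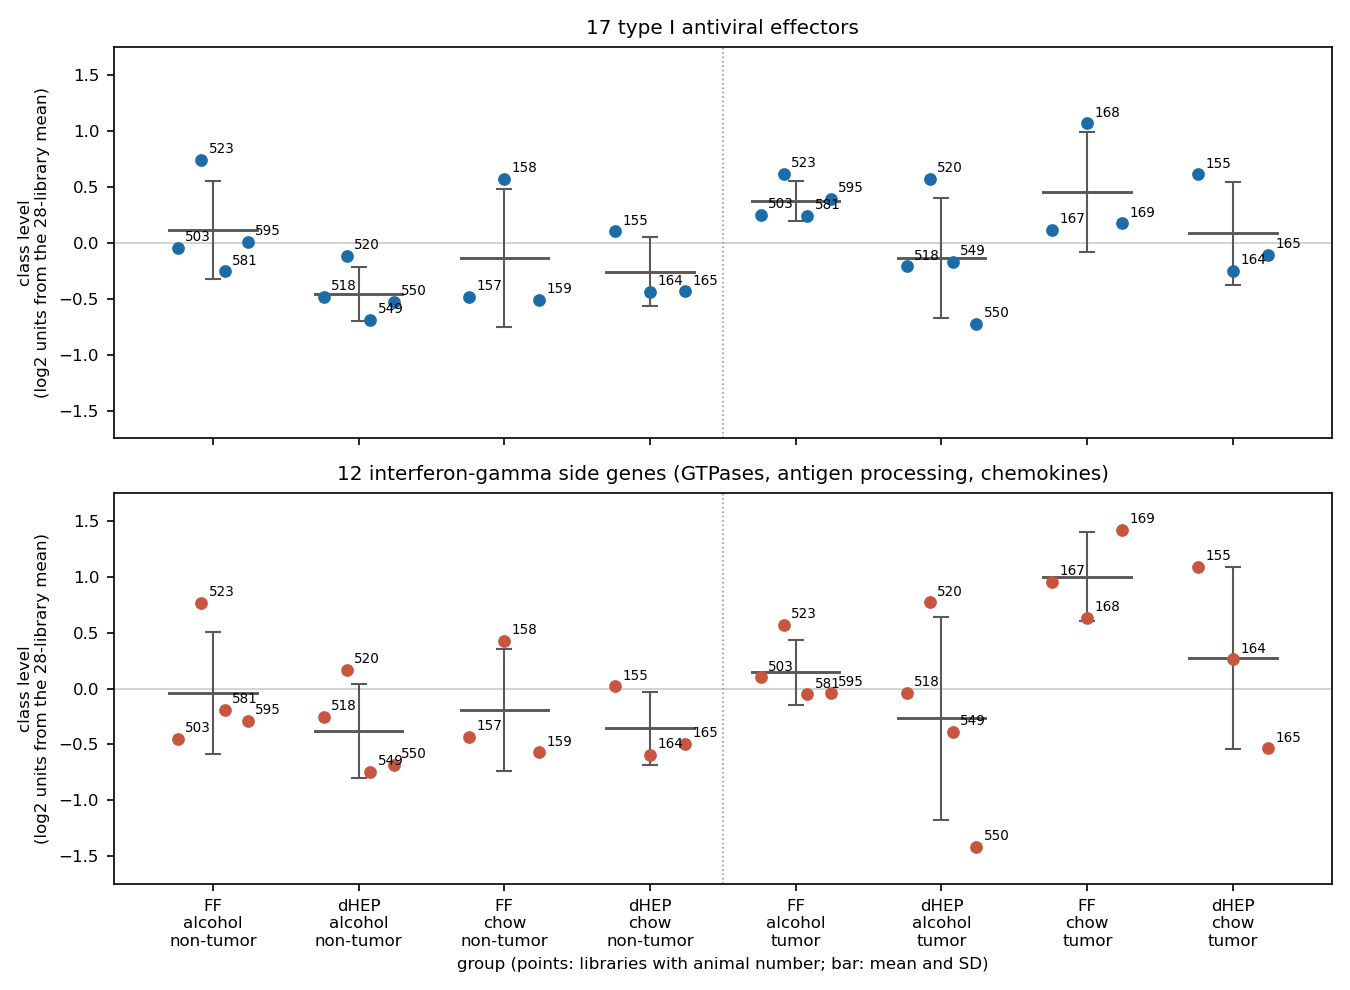
Class level of the 17 type I effectors (top) and of the 12 GTPases, antigen processing genes and chemokines (bottom), in log2 units from the mean over 28 libraries, by group; points are libraries with animal numbers, and bars are the mean and SD of 3 or 4 libraries. Tumor F_F_168 leads the FF chow tumors at 1.07 in the top panel and tumor F_F_169 at 1.42 in the bottom panel, while dHEP alcohol tumor dHEP_550 is the lowest library in both.

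Tumor was compared with non-tumor liver in each of the 4 combinations of genotype and diet, by limma's moderated test with Benjamini-Hochberg adjustment over 13503 genes. In this comparison 10 distinct members rose in at least 1 combination, giving 16 calls in all, 22 rose in none and none fell. Oas1a, a sensor of double-stranded RNA that starts RNA decay, rose in 3 of the 4 combinations. Ifi44, an antiviral protein induced by type I interferon, rose in both FF diets and, only with the animal as a replicate block, in dHEP chow. Ifih1 (MDA5), a sensor of long viral RNA, rose in both alcohol groups, and Cxcl9 and Cxcl10, which attract activated T cells, in both chow groups. Whether these differences between combinations hold was tested only as the interactions given below. The share of members that rose was 25% in FF chow, near the 21.2% of all genes there and resting on counts of 2 to 15 when 1 library was left out, and 9.38% in FF alcohol, 6.25% in dHEP alcohol and 9.38% in dHEP chow, below that of all genes.

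In FF chow tumors 8 of 32 members rose and none fell, against 21.2% of all genes higher and 9.55% lower. The median member stood 0.70 higher on the log2 scale, against 0.16 for all genes, and 30 of 32 members lay above 0, against 62.5% of all genes. Cxcl9 was 22.5, 24.5 and 10.01 CPM in non-tumor liver F_F_157, F_F_158 and F_F_159 and 224, 50.9 and 251 CPM in tumors F_F_167, F_F_168 and F_F_169. Every tumor lay above every non-tumor library, and the log2(CPM + 1) difference was 2.93 ± 0.73 (SE; n = 3 and 3, adjusted p = 0.0042 by limma). Cxcl10 was 3.34, 3.53 and 2.43 CPM in non-tumor liver and 13.9, 13.3 and 26.4 CPM in the tumors. Its groups did not overlap either, with a difference of 2.14 ± 0.57 (adjusted p = 0.0070 by limma).

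Of the 3 antigen processing genes, 2 rose in the same tumors. Tap1, a subunit of the transporter that carries peptides to MHC class I, was 23.7, 43.4 and 22.4 CPM in non-tumor liver and 77.3, 64.8 and 101 CPM in tumors, a difference of 1.45 ± 0.41 (adjusted p = 0.0098 by limma). Psmb8, a catalytic subunit of the immunoproteasome, went from 22.5, 31.4 and 20.1 CPM to 45.8, 47.7 and 65.3 CPM, a difference of 1.08 ± 0.33 (adjusted p = 0.016 by limma). Neither gene overlapped between the groups. Every tumor lay above every non-tumor library here for 28.1% of members, against 30.7% of all genes. Psmb9, its neighbour and partner subunit, differed by 0.92 without passing the threshold. Of the 7 GTPases all lay above 0 and only Gbp2, a guanylate-binding protein, passed, at 5.90, 14.3 and 6.46 CPM in non-tumor liver and 28.03, 22.4 and 43.7 CPM in tumors (difference 1.76 ± 0.58, adjusted p = 0.025 by limma).

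On the type I side of the FF chow comparison Oas1a rose by 1.53 ± 0.42 (adjusted p = 0.0085 by limma), from 4.20, 13.3 and 4.03 CPM to 13.9, 31.6 and 17.5 CPM. Ifi44 rose by 1.47 ± 0.50 (adjusted p = 0.029 by limma), from 4.49, 13.0 and 3.67 CPM to 18.1, 27.4 and 13.1 CPM. Isg15 rose by 0.97 ± 0.36 (adjusted p = 0.044 by limma), but its highest non-tumor value, 9.42 CPM in animal F_F_158, exceeded tumors F_F_167 and F_F_169. The calls leaned on single libraries: 15 members passed without non-tumor F_F_158, 2 without non-tumor F_F_159 and 3 without non-tumor F_F_157. Cxcl9 and Cxcl10 were past the threshold without each of the 6 libraries in turn. Isg15 was not past it with no filter or with only the compared groups fitted.

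**Figure D3:**
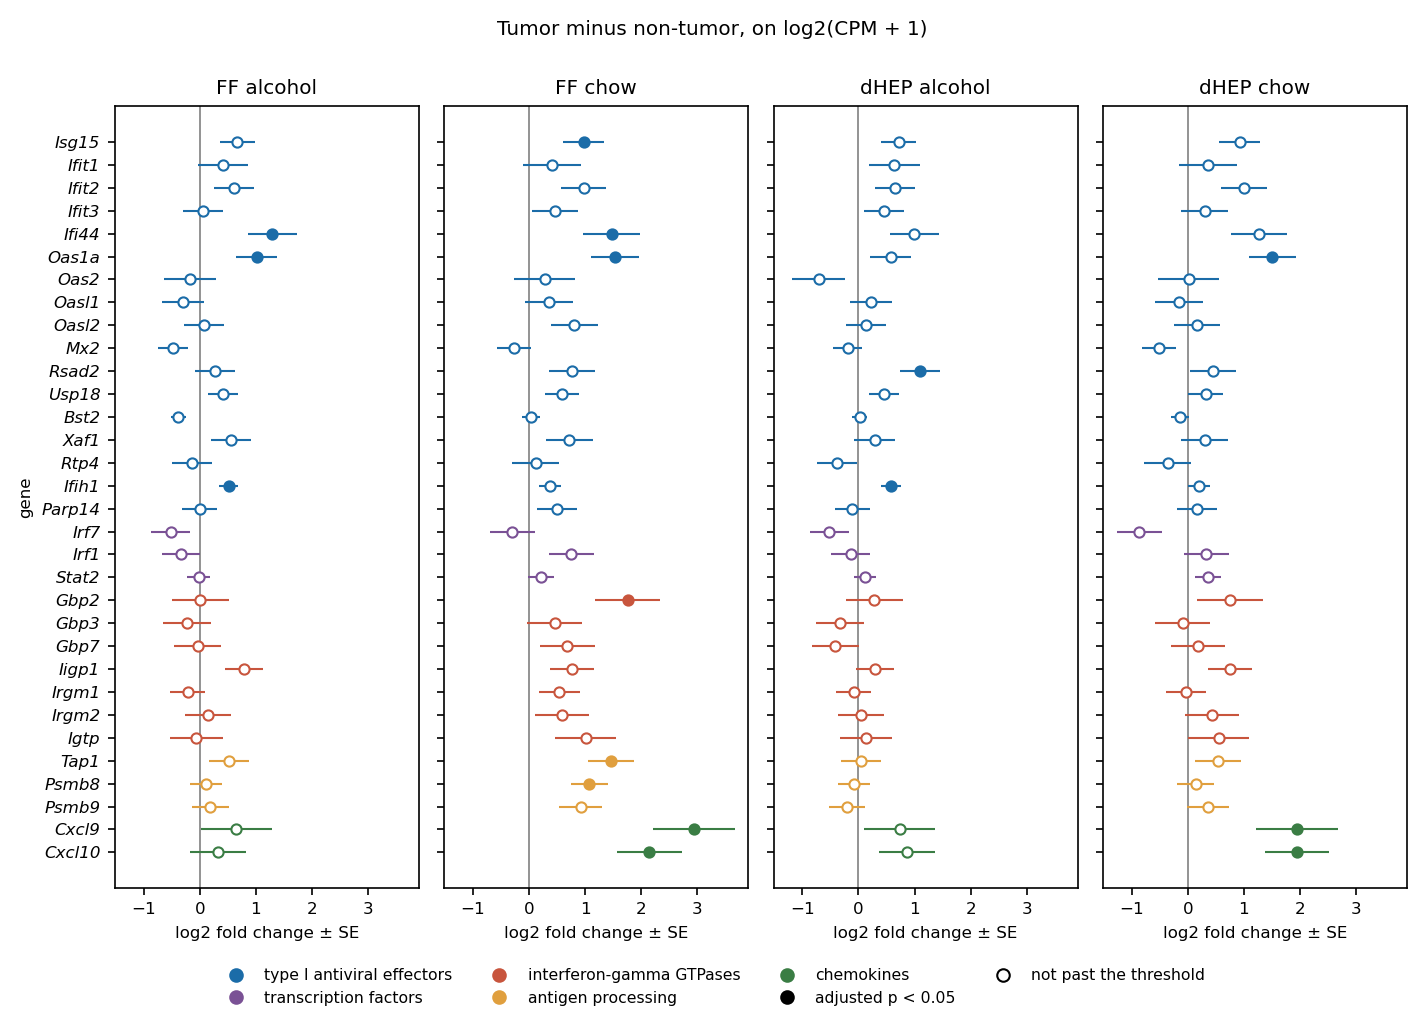
Difference between tumor and non-tumor liver for each member in the 4 combinations of genotype and diet, in log2(CPM + 1) units with its standard error; filled points have an adjusted p below 0.05 over all genes tested. In the chow panels Cxcl9 and Cxcl10 lie farthest to the right, at 2.93 and 2.14 in FF and at 1.95 and 1.95 in dHEP, and no filled point lies below 0.

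In dHEP chow tumors 3 members rose and none fell, against 17.2% of all genes higher and 10.7% lower, and the median member stood 0.32 higher, against 0.14 for all genes. Cxcl9 was 21.3, 11.0 and 13.3 CPM in non-tumor liver dHEP_155, dHEP_164 and dHEP_165 and 179, 72.6 and 15.5 CPM in the tumors of the same animals. Cxcl10 was 4.02, 2.44 and 3.29 CPM in non-tumor liver and 43.6, 11.7 and 6.55 CPM in tumors. Both were graded in the order dHEP_155, dHEP_164, dHEP_165 among the tumors, and tumor dHEP_165 alone was within the non-tumor range of Cxcl9. The differences were 1.95 ± 0.73 for Cxcl9 (adjusted p = 0.048 by limma) and 1.95 ± 0.57 for Cxcl10 (adjusted p = 0.014 by limma). T cell markers summed to 26.8, 9.17 and 2.30 CPM in these 3 tumors, the same order, against 2.97 to 5.81 CPM in their non-tumor liver. Sums of monocyte and macrophage markers (217, 81.8 and 40.9 CPM) and neutrophil markers (14.9, 7.07 and 2.84 CPM) followed the same order. So did B cell markers (8.34, 4.85 and 3.31 CPM) and tumor markers (932, 374 and 49.5 CPM). Within these sums Retnlg (0.18, 0.58 and 0.14 CPM) and Ms4a1 (1.31, 0.35 and 0.54 CPM) did not. Natural killer cell, plasmacytoid and conventional dendritic cell, cholangiocyte and cycling cell sums also followed the order. Hepatocyte, Kupffer cell, endothelial and stellate cell sums did not, and were highest in tumor dHEP_164. The part of each was not tested.

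Oas1a also rose in dHEP chow, from 5.68, 5.12 and 3.87 CPM to 22.9, 15.02 and 10.9 CPM, without overlap (difference 1.51 ± 0.42, adjusted p = 0.0100 by limma). Such a rise without overlap was seen for 12.5% of members, against 23.5% of all genes. Without tumor dHEP_155, one of the libraries with Il17ra in the FF range, 0 members passed, and the differences were 1.16 for Cxcl9, 1.22 for Cxcl10 and 1.24 for Oas1a, with a median over members of 0.05. With the animal number as a replicate block, 7 members passed, 6 higher and 1 lower, against 9.56% of all genes higher and 7.67% lower in that fit. Ifi44 (1.27), Ifit2 (1.004) and Isg15 (0.93) joined the 3 as higher (adjusted p of 0.011, 0.034 and 0.034 by limma). Irf7 was the lower one, at -0.86 ± 0.21 (adjusted p = 0.034 by limma with the block): each animal had less Irf7 in tumor, with 28.2, 15.9 and 15.3 CPM against 41.6, 35.1 and 30.6 CPM. After median-of-ratios scaling Irf7 also passed without the block (-0.99, adjusted p = 0.037 by limma), while Cxcl9 did not (adjusted p = 0.053). Cxcl9 was past the threshold without only 1 of the 6 libraries, tumor dHEP_165, and was not past it with no filter. With only the compared groups fitted, neither Cxcl9 nor Cxcl10 passed.

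**Figure D4:**
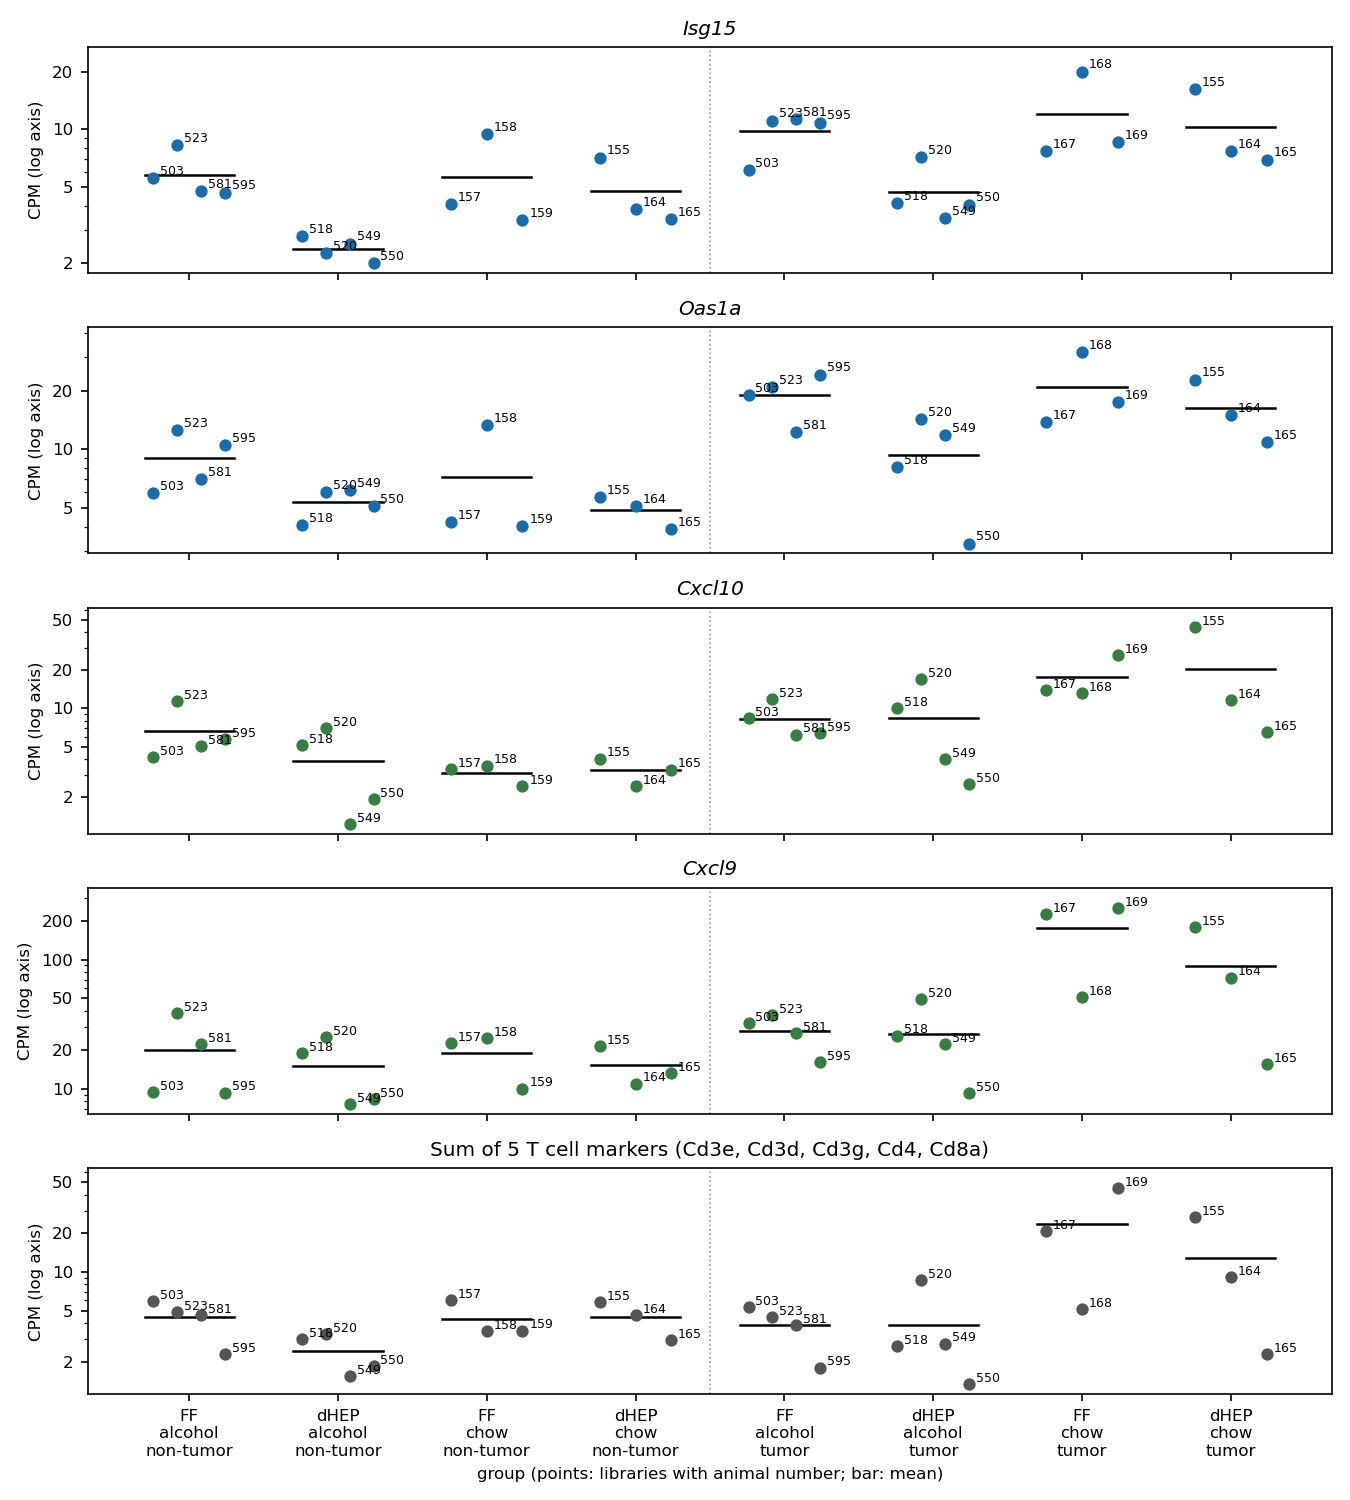
CPM on a log axis of Isg15, Oas1a, Cxcl10 and Cxcl9, and the summed CPM of 5 T cell markers, in every library by group; points carry animal numbers and bars are group means. Chow tumors F_F_167, F_F_169 and dHEP_155 have both the highest Cxcl9 (179 to 251 CPM) and the highest T cell sums (20.7 to 44.9 CPM), and the 4 dHEP alcohol non-tumor libraries have the lowest Isg15 (2.00 to 2.77 CPM).

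In FF alcohol tumors 3 members rose and none fell, against 13.9% of all genes higher and 10.6% lower, and the median member stood 0.09 higher, against 0.05 for all genes. All 3 were type I effectors. Ifih1 was 60.3, 79.0, 50.2 and 45.1 CPM in non-tumor liver F_F_503, F_F_523, F_F_581 and F_F_595 and 81.0, 88.3, 87.6 and 74.4 CPM in the tumors, overlapping only through non-tumor F_F_523 (difference 0.52 ± 0.17, adjusted p = 0.027 by limma). Ifi44 was 5.93, 16.7, 6.46 and 5.31 CPM in non-tumor liver and 17.9, 32.5, 14.2 and 20.51 CPM in tumors, higher in the tumor of every animal (difference 1.29 ± 0.43, adjusted p = 0.032 by limma). Oas1a was 5.96, 12.6, 7.03 and 10.5 CPM and then 19.1, 20.8, 12.2 and 24.3 CPM, again higher in every animal (difference 1.02 ± 0.37, adjusted p = 0.044 by limma). With no filter neither Ifi44 nor Oas1a passed.

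With the animal as a replicate block 9 members passed, against 19.6% of all genes higher and 15.6% lower in that fit, which was limma on these 8 libraries. Isg15 (0.67), Xaf1 (0.56), Iigp1 (0.78) and Tap1 (0.53) joined Ifih1, Ifi44 and Oas1a as higher, while Irf7 (-0.51) and Bst2 (-0.38) were lower. Iigp1 was 293, 485, 296 and 313 CPM in non-tumor liver and 537, 651, 476 and 697 CPM in tumors, rising in each animal. Without the block 0 members passed after leaving out non-tumor F_F_581, non-tumor F_F_595 or tumor F_F_523. Without non-tumor F_F_523 and F_F_581, the libraries with tumor markers, 2 members passed, and Oas1a did not. After median-of-ratios scaling Bst2 passed as lower (-0.43, adjusted p = 0.016 by limma).

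In dHEP alcohol tumors 2 members rose and none fell, against 12.9% of all genes higher and 7.54% lower, and the median member stood 0.14 higher, against 0.09 for all genes. Ifih1 was 49.3, 54.3, 35.6 and 40.7 CPM in non-tumor liver dHEP_518, dHEP_520, dHEP_549 and dHEP_550 and 69.3, 78.4, 64.0 and 57.6 CPM in tumors, without overlap (difference 0.58 ± 0.17, adjusted p = 0.017 by limma). Rsad2 was 9.03, 9.89, 4.49 and 5.61 CPM and then 11.3, 28.5, 13.9 and 14.6 CPM, also without overlap (difference 1.10 ± 0.36, adjusted p = 0.030 by limma). A rise without overlap was seen for 9.38% of members, against 13.8% of all genes. The third smallest p belonged to Ifi44, which did not pass (0.998 ± 0.43, adjusted p = 0.11 by limma). Without tumor dHEP_520, which held Il17ra in the FF range, 0 members passed and their median was -0.11, and 0 passed without non-tumor dHEP_549. With the replicate block Cxcl10 joined them (0.86 ± 0.22, adjusted p = 0.047 by limma), against 7.91% of genes higher and 4.87% lower in that fit.

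Cxcl9 and Cxcl10 did not pass without the block in either alcohol group, with differences of 0.65 and 0.33 in FF and 0.74 and 0.86 in dHEP. Whether the tumor difference itself depended on diet was tested as an interaction, and 0 of 32 members passed in FF, as did 0% of all genes. At an unadjusted p below 0.05 there were 4 members, against 5.93% of genes, and all 4 were less raised in alcohol tumors: Cxcl10 (-1.82 ± 0.76, adjusted p = 0.81 by limma), Cxcl9 (-2.28 ± 0.96), Gbp2 (-1.74 ± 0.77) and Psmb8 (-0.97 ± 0.43). In dHEP 0 members passed, with 0% of all genes, and 0 had an unadjusted p below 0.05, against 6.42% of genes; the smallest p belonged to Oas1a (-0.93), Ifih1 (0.38) and Cxcl10 (-1.08). The interaction of genotype with tissue had 0 members past the threshold in alcohol and 0 in chow, with 0% of all genes in both. It had 0 members at an unadjusted p below 0.05 in either, against 1.97% and 3.12% of genes. The smallest p belonged to Bst2 (0.40), Rsad2 (0.82) and Iigp1 (-0.48) in alcohol and to Psmb8 (-0.93), Tap1 (-0.90) and Gbp2 (-0.998) in chow. No member passed in any interaction without tumor dHEP_520 or dHEP_155 either, but medians moved. For genotype and tissue in alcohol the median was 0.05 with all libraries and -0.24 without dHEP_520, and in chow -0.33 and -0.73 without dHEP_155. For diet and tissue in dHEP it was -0.24 with all libraries, -0.49 without dHEP_520 and 0.13 without dHEP_155. The interactions were not fitted with the animal as a block.

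The comparison of dHEP with FF asks whether loss of the receptor in hepatocytes goes with another level of the interferon response. No member passed the threshold of limma's test in any genotype comparison, and no gene at all did (0% of 12651 genes in non-tumor liver with alcohol, with chow and with the diets averaged, and 0% of 13205 genes in the same 3 comparisons of tumors). Most members lay below 0, that is lower in dHEP, without reaching the threshold. Members vary together across libraries, so counts of their signs are not counts of independent genes. These comparisons share libraries with each other and with the diet comparisons, so their values are given side by side.

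In alcohol non-tumor liver all 32 members lay below 0, with a median of -0.45, against -0.05 for all genes, of which 37.3% lay above 0. At an unadjusted p below 0.05 there were 7 members, all lower in dHEP, against 8.51% of all genes in either direction. The medians by class were -0.59 for type I effectors, -0.42 for transcription factors, -0.38 for GTPases, -0.20 for antigen processing and -0.53 for chemokines. Isg15 was 5.55, 8.28, 4.75 and 4.67 CPM in FF and 2.77, 2.25, 2.53 and 2.00 CPM in dHEP, without overlap (difference -0.98 ± 0.27, adjusted p = 0.37 by limma). Those 4 dHEP values were the lowest of Isg15 among all 28 libraries. Lower in dHEP without overlap were 9.38% of members, against 2.78% of all genes. Rsad2 (-0.90 ± 0.30) and Mx2 (-0.60 ± 0.21), a gene of the Mx family of dynamin-like GTPases, came next, with adjusted p of 0.47 and 0.48 by limma. The median over members was -0.22 without FF library F_F_523.

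In chow non-tumor liver 22 members lay below 0 and the median was -0.12, against 0.03 for all genes, of which 56% lay above 0. None had an unadjusted p below 0.05, against 4.65% of all genes, and the smallest p belonged to Usp18 (-0.42), the protease that removes Isg15, Iigp1 (-0.27) and Igtp (-0.52). All 3 antigen processing genes lay above 0 here. Without FF library F_F_158 the median over members was 0.19, so its sign rested on that library. With the diets averaged the median was -0.27, and Isg15, Rsad2 and Usp18 were the 3 members at an unadjusted p below 0.05, against 5.28% of genes (smallest adjusted p = 0.90 by limma).

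**Figure D5:**
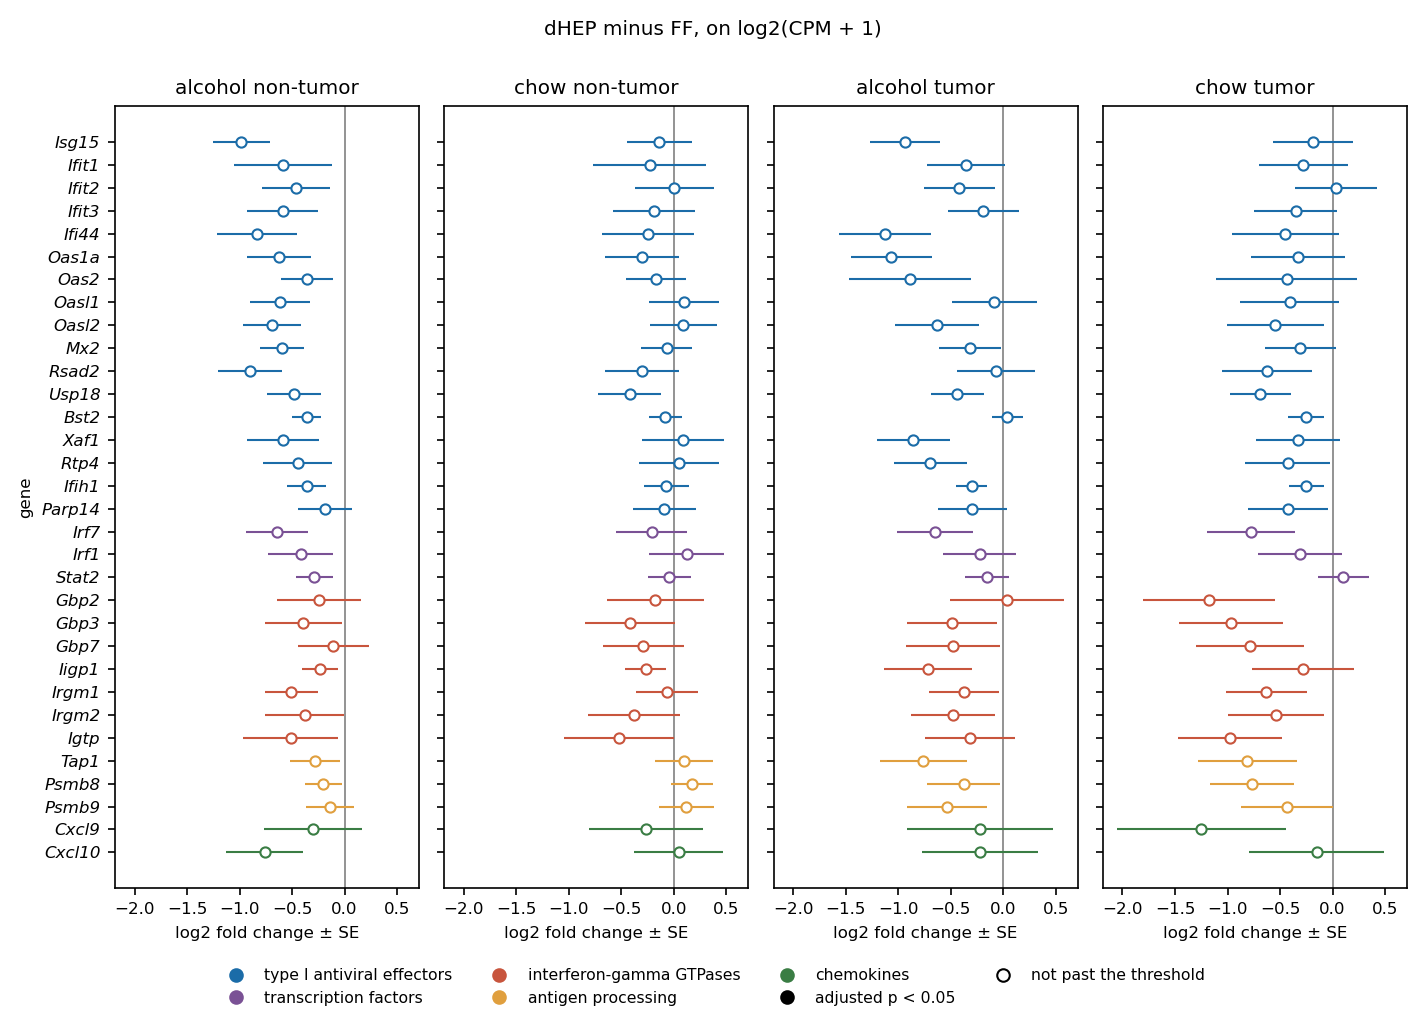
Difference between dHEP and FF for each member in the 4 combinations of tissue and diet, in log2(CPM + 1) units with its standard error; open points did not pass the threshold, and no point is filled. Nearly all points lie left of 0 except in chow non-tumor liver, and Isg15 stands at -0.98 and -0.94 in the alcohol panels.

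In alcohol tumors 30 of 32 members lay below 0, with a median of -0.40, while 47.1% of all genes lay above 0. An unadjusted p below 0.05 was found for 4 members, all lower, against 6.31% of genes. Isg15 was 6.13, 11.1, 11.3 and 10.9 CPM in FF and 4.14, 7.19, 3.44 and 4.06 CPM in dHEP, overlapping between F_F_503 and dHEP_520 (difference -0.94 ± 0.33, adjusted p = 0.73 by limma). Oas1a (-1.07 ± 0.39), Ifi44 (-1.13 ± 0.44) and Xaf1 (-0.86 ± 0.35), a partner of the apoptosis inhibitor XIAP, were the others. The median was -0.15 without dHEP tumor dHEP_550 and -0.64 without dHEP tumor dHEP_520. In chow tumors 30 members again lay below 0, with a median of -0.43, while 47.9% of all genes lay above 0. Usp18 (-0.69 ± 0.29) was the 1 member at an unadjusted p below 0.05, against 2.86% of genes. Igtp (-0.98) and Gbp3 (-0.96) followed, and all 3 had an adjusted p of 0.9996 by limma. The median was -0.75 without dHEP tumor dHEP_155 and -0.26 without FF tumor F_F_168.

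With the diets averaged, all 32 members lay below 0 in tumors, with a median of -0.53 against -0.01 for all genes, of which 48.1% lay above 0. At an unadjusted p below 0.05 there were 10 members, all lower, against 3.05% of genes, and their smallest adjusted p was 0.998 by limma. Usp18 (-0.56 ± 0.19), Irf7 (-0.71 ± 0.28) and Tap1 (-0.78 ± 0.31) had the smallest p, and the 10 came from type I effectors (6), transcription factors (1), GTPases (1) and antigen processing (2). The median ranged from -0.66 to -0.35 when each library was left out in turn. For the interaction of genotype with diet 0 members and 0% of genes passed in non-tumor liver and in tumors. No member had an unadjusted p below 0.05 there, against 6.88% of genes in non-tumor liver and 4.95% in tumors. The smallest p belonged to Isg15 (-0.84), Oasl2 (-0.78) and Mx2 (-0.53) in non-tumor liver and to Isg15 (-0.75), Gbp2 (1.21) and Bst2 (0.29) in tumors. In tumors the median was 0.05 with all libraries, -0.17 without dHEP_520 and 0.32 without dHEP_155.

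Alcohol was compared with chow within each genotype and tissue, and 0 members passed in each of these 4 comparisons. In FF non-tumor liver 0.577% of all genes passed. There 24 of 32 members lay above 0, against 51.1% of all genes, and the member median was 0.25. Bst2 (0.40 ± 0.15) and Oasl2 (0.72 ± 0.30), a member of the oligoadenylate synthetase family, had an unadjusted p below 0.05, against 14% of genes. Cxcl10 (0.81) came next, with an adjusted p of 0.39 by limma. Without FF alcohol library F_F_523 the median was 0.01. In dHEP non-tumor liver 0.656% of all genes passed, and the median member lay at -0.09. Isg15 (-0.72 ± 0.29), Mx2 (-0.54 ± 0.23) and Rsad2 (-0.75 ± 0.33) were the 3 members at an unadjusted p below 0.05, against 13.1% of genes, and all were lower with alcohol (smallest adjusted p = 0.30 by limma). Without dHEP chow library dHEP_155 the median was 0.13.

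In FF tumors 0% of all genes passed for diet. The median was -0.01 for the type I effectors, -0.76 for the GTPases, -0.51 for antigen processing and -1.68 for the chemokines, against -0.10 for all genes. All 12 genes of the last 3 classes lay below 0, while 34.1% of all genes lay above 0. At an unadjusted p below 0.05 there were 3 members, all lower with alcohol, against 5.44% of genes: Cxcl9 (-2.36 ± 0.75, adjusted p = 0.84 by limma), Igtp (-1.19 ± 0.46) and Gbp2 (-1.31 ± 0.59). Cxcl9 was 32.3, 37.0, 26.9 and 16.0 CPM in FF alcohol tumors and 224, 50.9 and 251 CPM in FF chow tumors, without overlap. Lower with alcohol without overlap were 18.8% of members, against 8.99% of all genes. T cell markers summed to 1.80 to 5.32 CPM in the alcohol tumors and 5.16 to 44.9 CPM in the chow tumors, and their part was not tested. In dHEP tumors 0.00757% of all genes passed, the chemokine median was -1.20 and the type I median -0.12. Isg15 (-0.93 ± 0.36) was the 1 member at an unadjusted p below 0.05, against 10.9% of genes, with Oas1a (-0.83) and Stat2 (-0.43) next (smallest adjusted p = 0.37 by limma). The member median of -0.32 was -0.02 without tumor dHEP_550 or dHEP_155 and -0.62 without tumor dHEP_520.

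The other genes of the pathway were counted from a separate list of 64, of which 62 were matched; Nlrc5 and Gbp5 were not analysed here. Of the interferons, 4 were on the list, and no other interferon gene was analysed here. Ifnl2 and Ifnl3 were listed at 0 CPM in all 28 libraries, Ifnb1 in 27, and Ifng did not exceed 0.48 CPM. The receptors were present in every library, with Ifnar1 at 43.2 to 84.6 CPM and Ifnar2 at 37.8 to 69.7 CPM.

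In FF chow tumors 22 pathway genes rose and 1 fell, in FF alcohol 5 rose and 2 fell, in dHEP alcohol 4 rose and none fell, and in dHEP chow 8 rose and 3 fell, of 57 tested. The share that rose was 38.6% in FF chow, against 21.2% of all genes, and below that of all genes in FF alcohol (8.77% against 13.9%), dHEP alcohol (7.02% against 12.9%) and dHEP chow (14% against 17.2%). Without tumor dHEP_520 the dHEP alcohol count was 1, Ly6e, and without tumor dHEP_155 the dHEP chow count was 4 higher and 2 lower. The pathway count of FF chow was not refitted without single libraries, on which the member count there leaned. Ifngr1, the ligand-binding chain of the interferon-gamma receptor, rose in all 4: by 2.15 ± 0.41 in FF chow, 1.44 ± 0.35 in FF alcohol, 1.28 ± 0.35 in dHEP alcohol and 2.00 ± 0.41 in dHEP chow (adjusted p of 4.8e-04, 0.0042, 0.012 and 9.0e-04 by limma). In dHEP alcohol without tumor dHEP_520 it did not pass (0.95 ± 0.34, adjusted p = 0.059 by limma), and in dHEP chow without tumor dHEP_155 it did (1.77 ± 0.45, adjusted p = 0.0088). Ifnlr1, the lambda interferon receptor, was at 0 to 1.07 CPM in non-tumor liver and 0.07 to 5.61 CPM in tumors. It rose by 2.18 in FF chow, 1.67 in FF alcohol and 1.91 in dHEP chow. Of the remaining genes with the smallest p, Pias1, a SUMO ligase, and Isg20, an exonuclease, led in FF alcohol (0.77 and 0.97), where Mavs, the adaptor of the RNA sensors, fell by 0.69. Isg20 (0.92) and the RNA sensor Tlr7 (1.17) rose in FF chow, Ly6e (0.98), Pias1 (0.53) and Ifngr2 (0.53) in dHEP alcohol, and Ifngr2 (0.93) and Isg20 (0.89) in dHEP chow. Of the hepatocyte markers, Alb and Apoa1 had higher means in the 14 tumors than in the 14 non-tumor libraries (106220 against 43133 CPM and 13702 against 4915 CPM), while Ttr (3542 against 4401 CPM), Hnf4a (595.4 against 724 CPM) and Cps1 (3106 against 5419 CPM) had lower ones, and the part of cell mixture in these receptor values was not tested. Outside the tissue comparisons Tlr7 was the 1 pathway gene that passed, higher with alcohol in FF non-tumor liver (1.08 ± 0.21, adjusted p = 0.041 by limma).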

How the data were processed

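The submitters' processing notes name STAR 2.5.1a, RSEM 1.3.0 and GRCm38, without their settings; the labels name polyA RNA and a stranded total RNA kit. The authors deposited 1 table of CPM, each column summing to 1000000, with no counts. The depth was estimated here from the smallest steps of the values, and since 84.8 to 87.0% of values of up to 20 reads were whole within 0.1 read, no count test was run.

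Values were taken as log2(CPM + 1), which understates the change of low genes, and tested with limma 3.58.1 (R 4.3.3, trend) on genes at 1 CPM or more in 3 fitted libraries, with adjusted p below 0.05 as the threshold. Genotype and diet comparisons used the 14 libraries of 1 tissue, and tissue comparisons and their interactions used all 28, 20 comparisons in all. The highest correlation between 2 libraries was 0.9913. Same-numbered tumor and non-tumor libraries were taken as 1 animal from their titles. Deviations of such pairs had correlations of 0.16 to 0.36 (FF alcohol), -0.11 to 0.25 (dHEP alcohol) and 0.07 to 0.19 (dHEP chow). Because the titles share the animal, it was also fitted as a block in the tissue comparisons other than FF chow, but not in the interactions. The fits were tested on simulated data. Alternatives were a pseudocount of 0.5, median-of-ratios scaling, no filter, a minimum mean of 5 CPM, fitting only the compared groups, the block, and leaving out libraries; the pathway counts without tumors dHEP_520 and dHEP_155 were added after seeing the data.

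The members and lists were chosen with earlier results of these data known. All members could be named. In each comparison those that passed (at most 8), or else the 3 of smallest p, were named, with at most 4 pathway genes. Promoter sequences are from RefSeq (GRCm38.p6).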

Additional observations from a re-analysis of the deposited data

Results flagged for a closer look

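In groups of 4 libraries, 128 sets of values were checked for a library far from the other three by Dixon's ratio, which chance exceeds in about 1 in 20 sets, and 9 were past it. FF alcohol non-tumor F_F_523 was the high library in 6 of them. Ifit2 was at 15.6 CPM with the next at 7.75, Ifi44 at 16.7 with the next at 6.46, and Usp18 at 26.8 with the next at 14.6. Gbp3 was at 26.7 CPM with the next at 10.3, Iigp1 at 485 with the next at 313, and Irgm2 at 112 with the next at 48.8. These 6 genes come from 1 library and are not independent of each other. In dHEP alcohol non-tumor liver animal dHEP_520 stood apart in opposite ways, high for Stat2 (53.2 CPM, next 44.5) and low for Oas2 (5.82 CPM, next 6.45). Isg15 was low in FF alcohol tumor F_F_503, at 6.13 CPM with the next at 10.9 CPM.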

How the results depend on the processing

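The 16 comparisons with 0 members past the threshold gave 0 under each of their 258 alternatives, and no called member changed direction under any setting. None of those 16 was refitted with the replicate block, so the interactions with tissue do not account for animals shared between tissues. The tissue counts moved more. In FF alcohol 3 members became 1 with no filter and 9 with the replicate block, and 0 to 3 when a library was left out. In FF chow 8 became 15 without dHEP chow non-tumor dHEP_155 and FF chow non-tumor F_F_158, and 2 to 15 when a library was left out. In dHEP alcohol 2 became 0 to 4 when a library was left out (4 without tumor dHEP_550). In dHEP chow 3 became 7 with the replicate block, 5 without the same pair of non-tumor libraries, and 0 to 4 when a library was left out. Calls lost within these counts were Ifi44 and Oas1a in FF alcohol with no filter, Oas1a there without non-tumor F_F_523 and F_F_581, Isg15 in FF chow with no filter or only the compared groups fitted, and Cxcl10 in dHEP chow with only those groups. Cxcl9 in dHEP chow was lost with both of these settings, with median-of-ratios scaling and without non-tumor dHEP_155 and F_F_158. The block changed no other count by more than 1.5 times, and FF chow shares no animal number between tissues. The causes were not tested. Median-of-ratios scaling moved the median of all genes by -0.15 in FF chow, -0.12 in dHEP chow and 0.10 in dHEP diet tumors and the FF diet by tissue interaction. It took the share of higher among all calls from 69% to 53.2%, 61.8% to 49.1% and, in dHEP alcohol, 63% to 49.5%, and for diet in dHEP non-tumor liver from 28.9% to 51.3%. The member median changed sign in 21 of 312 alternatives, 1 of them for the tissue comparisons (dHEP alcohol, -0.11 without tumor dHEP_520). Depth limits values near 1 CPM, where a member rests on about 10 to 18 reads.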
